A study of Mus musculus with 5 samples.

Results

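H19, Igf2 and Dlk1 are imprinted genes of the mouse, and each was found in the table of exon bin counts under its own symbol. They made up 3 of 24538 genes and 25 of 243715 exon bins, with 7 bins for H19, 6 for Igf2 and 12 for Dlk1. An exon bin is a stretch of exon counted separately from its neighbours. Polyadenylated RNA had been sequenced from murine embryonic stem cells (ESC), cultured pluripotent cells of the early embryo, in 2 libraries labelled -45 SE deleted (deleted 1 and 2) and 3 labelled wildtype (wildtype 1 to 3). SE stands for super-enhancer, a dense cluster of enhancers, and the title ties the deleted one to the pluripotency gene Nanog. The protocol, which is the same for all 5 libraries, lists 6 days with ethanol as vehicle or with tamoxifen (4OHT), and the labels assign neither agent to a library. Whether libraries of a group come from separate cultures, or how many clones stand behind the deletion, is not stated either, and the spread behind each p-value may be technical. Of the 3 replicates planned per condition, 1 deletion library was not analysed here.

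At an imprinted gene, one parental copy is largely silent, and which one depends on DNA methylation marks set in the germ line at a control region. H19, a long non-coding RNA expressed from the maternal chromosome, and Igf2, a growth factor gene expressed from the paternal chromosome, are neighbours on chromosome 7 and share 1 control region and a set of enhancers. When unmethylated, this region binds CTCF and keeps the enhancers away from Igf2. Dlk1, on chromosome 12, is expressed from the paternal chromosome and encodes a transmembrane protein with EGF-like repeats, related to the Notch ligands. Its own domain also holds the maternally expressed RNA Meg3. These counts do not separate the parental copies, and methylation was not measured.

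H19 is also the precursor of miR-675, whose mature forms are shown because they are the processed product of the member that differed most. In the RefSeq sequences (GRCm38.p6, minus strand) they lie at chr7:142577112-142577133 and chr7:142577078-142577099, with capitals marking the seed, bases 2 to 8. No other mature miRNA of that table shared either seed.
mmu-miR-675-5p: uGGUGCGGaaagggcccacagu
mmu-miR-675-3p: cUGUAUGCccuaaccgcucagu

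For the protein-coding members, the 250 bases before a transcript start are shown, since the starts are the sites through which either gene's RNA is made. The Dlk1 window is chr12:109452573-109452822 on the plus strand, its 1 start in the RefSeq table. The Igf2 window, chr7:142657497-142657746 on the minus strand, is 1 of 4 and precedes a start that GENCODE also annotates (both GRCm38). Capitals mark the GC box GGGCGG, searched on both strands together with the TATA box TATAAA, and the motifs do not overlap each other. The Igf2 window held 2 GC boxes and the Dlk1 window 0, while 32.7% of 32851 such windows held at least 1. Neither held TATAAA, which was found in 12.4%.
Igf2: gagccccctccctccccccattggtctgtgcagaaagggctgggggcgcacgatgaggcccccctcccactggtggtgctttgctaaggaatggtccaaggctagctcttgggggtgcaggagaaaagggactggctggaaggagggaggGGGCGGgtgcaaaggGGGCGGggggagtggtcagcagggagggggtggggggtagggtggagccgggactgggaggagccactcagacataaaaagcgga
Dlk1: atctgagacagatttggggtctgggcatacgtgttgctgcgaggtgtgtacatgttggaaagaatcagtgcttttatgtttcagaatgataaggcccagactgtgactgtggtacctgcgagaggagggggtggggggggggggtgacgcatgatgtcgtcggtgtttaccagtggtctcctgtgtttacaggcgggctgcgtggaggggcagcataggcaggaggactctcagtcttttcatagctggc

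Bin counts totalled 93574609 and 99134363 in deleted 1 and 2, and 125184361, 114838600 and 213042746 in wildtype 1, 2 and 3. Levels are given as CPM, the count relative to the scaled library size. A single count equalled 0.00463 to 0.0107 CPM depending on the library, and a floor of 3 counts equalled 0.0139 to 0.0321 CPM. Reads without molecular identifiers do not stand for separate molecules, and such floors speak for counting error alone. Wildtype 3 stood apart from the other wildtype libraries, since the chi-square divided by its degrees of freedom was 87.4 and 93.4 against them, while those 2 gave 9.96 and the deleted pair 21.9. At edgeR adjusted p under 0.05, deleted cells had 3245 genes higher and 3208 lower. Scaled on rows with gene symbols alone, the same split was 2427 higher and 4113 lower.

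H19 was 3.51-fold lower in deleted cells, Dlk1 was 1.61-fold higher, and the difference in Igf2 did not pass the test. Thus 2 of the 3 genes passed edgeR's quasi-likelihood test at adjusted p under 0.05, where 32.1% of 3591 tested genes with symbols and 39.7% of all tested genes did.

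H19 had 27 and 26 counts in deleted 1 and 2, against 91, 100 and 269 counts in wildtype 1, 2 and 3. This came to 0.289 and 0.262 CPM in the deleted libraries, against 0.731, 0.875 and 1.24 CPM in the wildtype libraries. The deleted libraries lay close together and far below every wildtype library, and wildtype 3 was the highest of all. H19 averaged 0.276 ± 0.0190 CPM over the deleted libraries (SD, n = 2) and 0.950 ± 0.265 CPM over the wildtype libraries (SD, n = 3). The log2 fold change, deleted minus wildtype, was -1.81 ± 0.29 (SE; edgeR adjusted p = 0.00145), and without wildtype 3 it was -1.54 (edgeR adjusted p = 7.09e-05). Among the 3591 tested symbols, 42 had a log2 fold change as low as that of H19 or lower, H19 included. Groups did not overlap in 57.0% of tested symbols, so the separation alone was common in these libraries.

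Igf2, the neighbour of H19, had 91 and 158 counts in deleted 1 and 2, against 178, 254 and 421 counts in wildtype 1, 2 and 3. Its levels were 0.975 and 1.59 CPM in the deleted libraries, against 1.43, 2.22 and 1.95 CPM in the wildtype libraries. Deleted 1 was the lowest library, but deleted 2 lay above wildtype 1, so the groups overlapped. Igf2 averaged 1.29 ± 0.438 CPM over the deleted libraries (SD, n = 2) and 1.87 ± 0.402 CPM over the wildtype libraries (SD, n = 3). On the log2 scale Igf2 differed by -0.54 ± 0.26 (SE), short of the threshold (edgeR adjusted p = 0.149). It rested on which deleted library was used: it was -0.96 without deleted 2 (edgeR adjusted p = 0.0473) and -0.23 without deleted 1 (edgeR adjusted p = 0.573). Igf2os, a gene on the opposite strand of the Igf2 locus, was picked after its values were seen. It had 7 and 8 counts in deleted 1 and 2, against 17, 17 and 21 counts in wildtype 1, 2 and 3. These counts are not scaled, and wildtype 3 had 213042746 bin counts in all against 93574609 and 99134363 in deleted 1 and 2. The strand setting of the counts is not given in the sources used here, so reads of Igf2 and Igf2os in shared sequence cannot be told apart.

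Dlk1 had 295 and 307 counts in deleted 1 and 2, against 231, 236 and 415 counts in wildtype 1, 2 and 3. Its levels were 3.16 and 3.10 CPM in the deleted libraries, against 1.86, 2.07 and 1.92 CPM in the wildtype libraries. Both groups were tight and did not overlap, and wildtype 3 fell between the other wildtype libraries. Dlk1 averaged 3.13 ± 0.0441 CPM over the deleted libraries (SD, n = 2) and 1.95 ± 0.107 CPM over the wildtype libraries (SD, n = 3). The gene thus rose by 0.69 ± 0.10 on the log2 scale (SE; edgeR adjusted p = 0.00107). Rises of this size were not rare, since 672 of the 3591 tested symbols, Dlk1 included, had a log2 fold change at least as high.

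**Figure D1:**
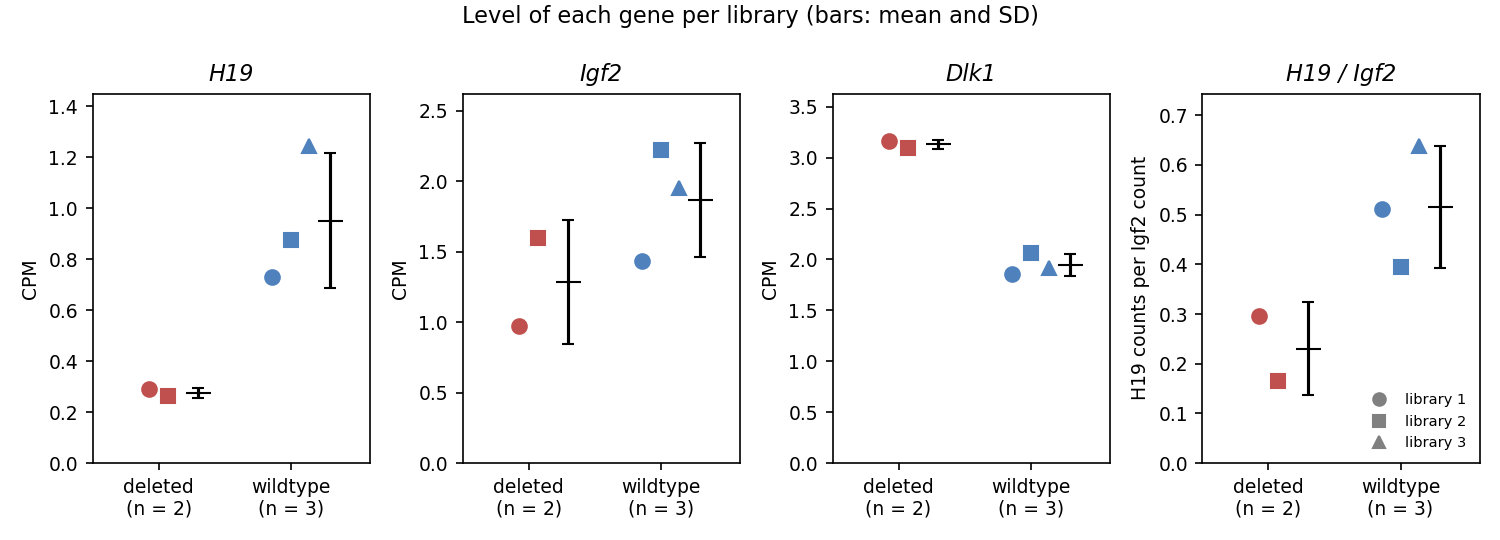
Level of H19, Igf2 and Dlk1 (CPM, vertical axes from 0) and H19 counts per Igf2 count (right panel) in each library, deleted left and wildtype right, with a marker shape per library number; black bars give the mean and SD. Deleted libraries lie below all wildtype libraries for H19 and for the ratio, above them for Dlk1, and overlap them for Igf2.

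Because H19 and Igf2 share a control region, their counts were also compared within each library, which needs no scaling between libraries. H19 had 0.297 and 0.165 counts per Igf2 count in deleted 1 and 2, against 0.511, 0.394 and 0.639 in wildtype 1, 2 and 3. The ratio was lower in both deleted libraries than in every wildtype library. It averaged 0.231 ± 0.0934 over the deleted libraries (SD, n = 2) and 0.515 ± 0.123 over the wildtype libraries (SD, n = 3). The mean of the log2 ratios differed by -1.19, deleted minus wildtype. The exact two-sided permutation test, which doubles the smaller tail, gave p = 0.2. This is the smallest value that this form of the test allows for 2 libraries against 3. The 2 fitted changes were not tested against each other in one model.

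All 7 exon bins of H19 were lower in both deleted libraries than in every wildtype library, several of them at 1 to 5 counts, and all 12 bins of Dlk1 had a higher mean in deleted cells. Groups did not overlap in 26.4% of the 48777 symbol bins with a count in any library, and in 44.0% of the 11360 tested ones. Tested as features of their own, 3 of 4 tested H19 bins were lower, 3 of 10 tested Dlk1 bins were higher and 0 of 3 tested Igf2 bins passed (edgeR adjusted p under 0.05), where 12.3% of tested bins of symbols and 18.8% of all tested bins passed. The other 8 bins had too few counts. All 4 tested H19 bins reached the count minimum through the wildtype libraries, where they were high, and not through the deleted ones, so their count of calls lends no support to the direction. Bins 2 and 3 of Igf2 likewise entered through wildtype, and bin 10 of Dlk1 through the deleted libraries. Bins of 1 gene share reads, so they are not independent. Their genome positions are not used here, so no bin is assigned to an exon or a start.

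The most counted H19 bin, bin 7, had 8 and 12 counts in the deleted libraries, against 35, 33 and 101 counts in the wildtype libraries. This bin fell by 1.77 ± 0.35 on the log2 scale (SE; edgeR adjusted p = 0.00281). Bin 1 of H19 had 6 and 3 counts in the deleted libraries, against 17, 23 and 62 counts in the wildtype libraries. The groups were again apart, with a log2 fold change of -2.18 ± 0.48 (SE; bin-level edgeR adjusted p = 0.00594). H19 bin 6 fell by 1.89 ± 0.47 on the log2 scale (SE; edgeR adjusted p = 0.0121), while bin 3 had -2.24 ± 0.76 and did not pass (edgeR adjusted p = 0.0548). Without deleted 1, and also without deleted 2, 1 H19 bin passed.

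In Dlk1, 8 of 12 bins had deleted libraries above all wildtype libraries, and bins 5, 9, 10 and 11 overlapped. Of the 12 bins, 10 were tested. Without overlap in either direction were 44.0% of tested symbol bins and 26.4% of symbol bins with a count in any library. Bin 12 had 38 and 46 counts in the deleted libraries, against 26, 29 and 33 counts in the wildtype libraries, and the largest tested log2 fold change of the gene, 1.13 ± 0.27 (SE; edgeR adjusted p = 0.0107). Bins 2 and 3 followed at 1.04 ± 0.33 and 0.99 ± 0.28 (edgeR adjusted p = 0.0399 and 0.0228), and bin 10 was lowest at 0.19 ± 0.41. The number of Dlk1 bins that passed depended on single libraries, being 0 without deleted 1, 1 without wildtype 2 and 5 without wildtype 3.

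Most Igf2 counts lay in bin 1. This bin had 73 and 125 counts in the deleted libraries, against 152, 219 and 358 counts in the wildtype libraries, with a log2 fold change of -0.65 ± 0.23 that did not pass (SE; edgeR adjusted p = 0.0817). Without deleted 2, and also without wildtype 1, 1 Igf2 bin was called lower. Bin 1 held 79.7% ± 0.782 of the Igf2 counts in deleted cells (SD, n = 2) and 85.5% ± 0.608 over the wildtype libraries (SD, n = 3). Bin 3 held 8.51% ± 0.398 in deleted cells and 5.99% ± 1.62 in wildtype cells, and its own level differed by 0.03 ± 0.39 on the log2 scale.

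Whether bins kept their share of the gene was tested with edgeR's exon usage test, which passed 2.76% of 13045 genes. None of H19, Igf2 and Dlk1 passed, with unadjusted Simes p of 0.957, 0.769 and 0.509 in edgeR. At an unadjusted p under 0.05 the count was 0 of 3 genes and 0 of 17 bins. The share of Igf2 bin 1 had an unadjusted edgeR p of 0.769 in this test. The smallest shift that this test could find at these counts was not determined.

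**Figure D2:**
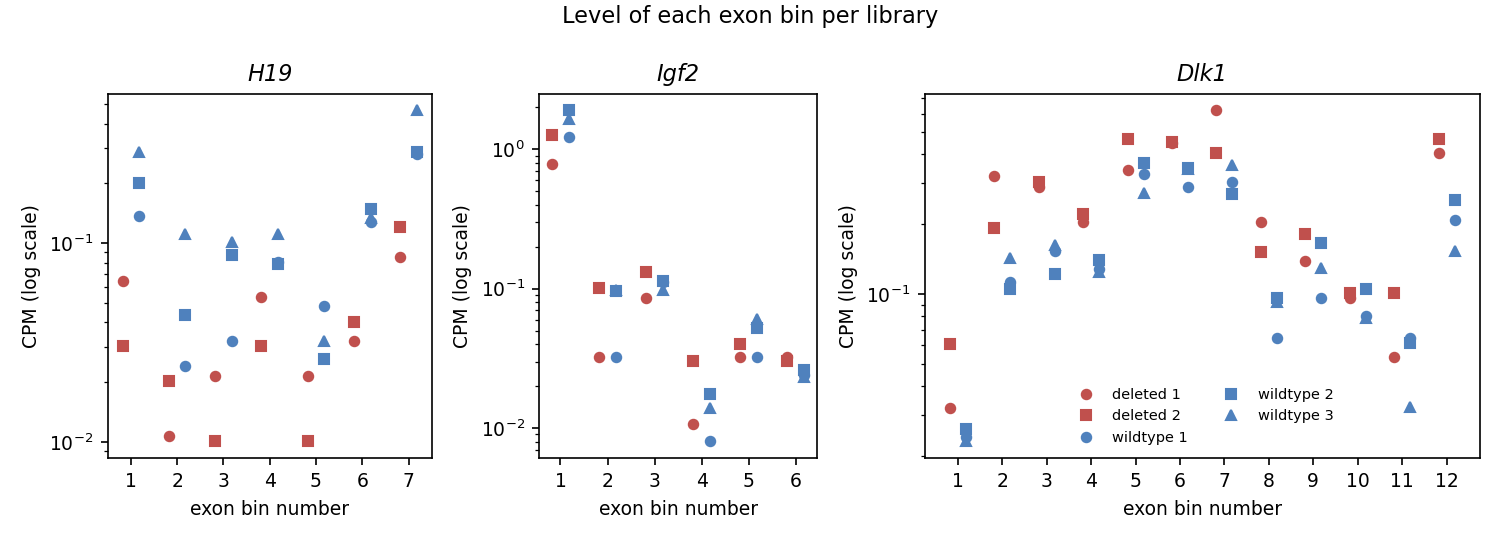
Level of every exon bin (CPM, log-scale vertical axis) by bin number for H19, Igf2 and Dlk1, with deleted libraries in red left of wildtype libraries in blue. In all 7 H19 bins the red points lie below the blue ones, in 8 of 12 Dlk1 bins they lie above, and in most Igf2 bins they mix.

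On distal chromosome 7, Th was lower and Tspan32 higher around H19 and Igf2. Of 26 listed genes, H19 and Igf2 among them, 16 had rows and 8 were tested. With H19 counted, 1 was higher, 2 were lower and 5 did not pass, a share of 37.5% near the 32.1% of tested symbols. Th, the tyrosine hydroxylase of dopamine synthesis, lies in this domain and fell beside H19. It had 0.129 and 0.182 CPM in the deleted libraries, against 0.458, 0.516 and 0.500 CPM in the wildtype libraries, so it fell by 1.65 ± 0.25 on the log2 scale (SE; edgeR adjusted p = 0.00104). Ins2, the insulin gene between Igf2 and Th, and Nctc1, a non-coding RNA gene near H19, had 0 counts in all 5 libraries.

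The tetraspanin gene Tspan32, further along distal chromosome 7 and not assigned here to either control region, rose by 0.50 ± 0.15 on the log2 scale (SE; edgeR adjusted p = 0.0229). Its call ended without deleted 1, deleted 2 or wildtype 1 (edgeR adjusted p = 0.175, 0.0561 and 0.0682) and when its most counted bin stood for the gene (0.138). Kcnq1ot1, the long non-coding RNA of the neighbouring imprinted cluster, which has a control region of its own, had -0.07 ± 0.23. Slc22a18, a transporter gene, Osbpl5, a lipid-binding protein gene, and Dusp8, a phosphatase gene outside the imprinted core, had 0.21 ± 0.14, -0.22 ± 0.17 and 0.41 ± 0.30 and did not pass (edgeR adjusted p = 0.268, 0.341 and 0.320).

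On chromosome 12, 5 of 18 listed genes of the Dlk1 to Dio3 region and its flanks had rows, 4 were tested and 3 were higher, Dlk1 itself included, where 19% of tested symbols were higher. Meg3, Rtl1, Rian, Mirg and Dio3 were not analysed here. Beside Dlk1, Slc25a29, a mitochondrial amino acid carrier gene, had 1.46 and 1.36 CPM in the deleted libraries, against 0.756, 0.691 and 0.597 CPM in the wildtype libraries. It rose by 1.06 ± 0.15 on the log2 scale (SE; edgeR adjusted p = 0.000838). Begain, a gene of a synaptic scaffold-associated protein in the flank of Dlk1, rose by 0.64 ± 0.17 (SE; edgeR adjusted p = 0.0175), a call that ended without deleted 1, deleted 2, wildtype 1 or wildtype 2 (edgeR adjusted p = 0.0851, 0.106, 0.0587 and 0.0541). Slc25a47, another mitochondrial carrier gene, had 0.09 ± 0.30 (edgeR adjusted p = 0.844).

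Over a list of 81 imprinted genes, the members included, 31 had rows and 20 were tested. Of these 8 were higher, 2 were lower and 10 did not pass, so that 50.0% passed where 32.1% of tested symbols did. Over the 3591 tested symbols, 683 (19%) were higher and 469 (13.1%) lower. The median log2 fold change of the list was 0.32, against 0.07 over all tested symbols. In the most counted bin alone, 6 of 17 tested genes of the list passed, where 5608 of 15185 tested genes did. The share of the list was then no larger than that of all genes.

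Of the 20, H19 and Th were the lower calls, and the largest rise was in Atp10a, a phospholipid flippase gene next to the Prader-Willi and Angelman region. Atp10a had 4.08 and 4.59 CPM in the deleted libraries, against 1.37, 1.69 and 1.76 CPM in the wildtype libraries, so it rose by 1.43 ± 0.13 on the log2 scale (SE; edgeR adjusted p = 8.60e-05). Cdh15, a cadherin gene of muscle precursors, rose by 0.83 ± 0.18 (SE; edgeR adjusted p = 0.00601).

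In the Peg3 cluster of proximal chromosome 7, Zim3, annotated as a long non-coding RNA gene, rose by 0.88 ± 0.20 on the log2 scale (edgeR adjusted p = 0.00868). Usp29, a deubiquitinase-family gene, rose by 0.77 ± 0.18 (edgeR adjusted p = 0.0101). The strand setting is not given, and whether Zim3 and Usp29 share reads was not tested. Without deleted 2 their log2 fold changes were 0.55 and 0.44 and neither passed (edgeR adjusted p = 0.123 and 0.135). Zim1, a zinc-finger gene of the same cluster, had 0.90 ± 0.37 and did not pass (edgeR adjusted p = 0.0855).

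The calcitonin receptor gene Calcr rose by 0.50 ± 0.13 (edgeR adjusted p = 0.0147), not called without deleted 1 or deleted 2 (edgeR adjusted p = 0.113 and 0.0561) or with its most counted bin (0.114). Its chromosome 6 neighbours Asb4, of a ubiquitin ligase subunit, and Tfpi2, of a protease inhibitor, had 0.44 ± 0.18 and 0.19 ± 0.45 (edgeR adjusted p = 0.0819 and 0.765). Asb4 passed, at 0.57, once wildtype 3 was left out (edgeR adjusted p = 0.0226). Sfmbt2, a Polycomb-group gene imprinted in placenta, rose by 0.29 ± 0.08 (edgeR adjusted p = 0.0201). That call held without wildtype 3 but ended without any of the other 4 libraries (edgeR adjusted p = 0.0581 to 0.151), and with scaling on symbol rows (0.0612). Magel2, Gatm and Klf14 had 0.35 ± 0.22, 0.05 ± 0.11 and -0.07 ± 0.42 and did not pass (edgeR adjusted p = 0.231, 0.753 and 0.918).

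**Figure D3:**
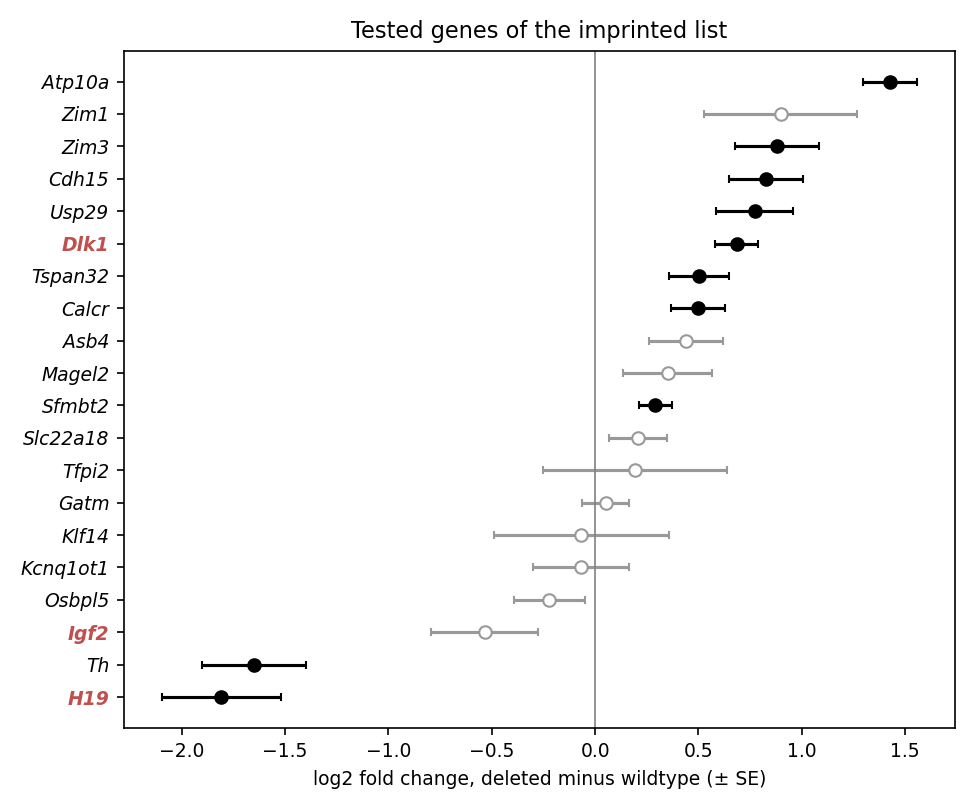
Log2 fold change (horizontal axis, deleted minus wildtype, bars SE) of the 20 tested imprinted genes, one per row and ordered by value; filled points passed edgeR adjusted p under 0.05 and the members are named in red. H19 at -1.81 and Th at -1.65 stand apart on the lower side, and Atp10a at 1.43 is the highest.

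IGF2 acts through the IGF1 and insulin receptors and their IRS and PI3-kinase relays. Of 34 genes listed for this pathway, 16 had rows, 10 were tested, 1 was higher, 1 was lower and 8 did not pass, a smaller share than the 32.1% of tested symbols. Among ligands, Igf1 had -0.65 ± 0.52 on the log2 scale (edgeR adjusted p = 0.358), and Ins1 and Ins2 had 0 counts in all libraries. The insulin receptor gene Insr had 2.45 and 2.93 CPM in the deleted libraries, against 3.46, 3.20 and 4.85 CPM in the wildtype libraries. The groups did not overlap, but the log2 fold change, -0.52 ± 0.20 (SE), missed the threshold (edgeR adjusted p = 0.0784). It passed at -0.64 without wildtype 2 and at -0.31 without wildtype 3 (edgeR adjusted p = 0.0347 and 0.0358), with DESeq2 (0.0356), with the most counted bin (0.0448) and with scaling on symbol rows (0.0190).

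Pik3r1, the regulatory subunit gene of PI3-kinase, was the lower call. It had 3.21 and 3.80 CPM in the deleted libraries, against 4.97, 4.81 and 6.35 CPM in the wildtype libraries, and fell by 0.62 ± 0.14 on the log2 scale (SE; edgeR adjusted p = 0.00945), a change that was not called without deleted 1 (edgeR adjusted p = 0.0934). Grb14, an adaptor that dampens insulin receptor signalling, rose by 0.42 ± 0.13 (SE; edgeR adjusted p = 0.0258). The Grb14 call ended without deleted 2, wildtype 1 or wildtype 2 (edgeR adjusted p = 0.236, 0.0676 and 0.0511; log2 fold change 0.27 without deleted 2), with the most counted bin (0.217) and with scaling on symbol rows (0.0622).

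DLK1 is related to the Delta ligands of Notch receptors, and 37 Notch pathway genes were listed, Dlk1 among them. Of these 18 had rows and 12 were tested, and Dlk1, Dll3 and Hey1 were higher, Dll1 was lower and 8 did not pass, a share of 33.3% beside the 32.1% of tested symbols. The ligand gene Dll1 had 0.375 and 0.192 CPM in the deleted libraries, against 0.836, 0.831 and 0.722 CPM in the wildtype libraries, so it fell by 1.49 ± 0.26 on the log2 scale (SE; edgeR adjusted p = 0.00222). Dll3, a divergent ligand that inhibits Notch within the cell, rose by 0.57 ± 0.12 (SE; edgeR adjusted p = 0.00633), not called without deleted 2 (edgeR adjusted p = 0.0823). Hey1, a transcriptional repressor induced by Notch, rose by 0.41 ± 0.13 (SE; edgeR adjusted p = 0.0299), a call that ended without deleted 1, deleted 2, wildtype 1 or wildtype 3 (edgeR adjusted p = 0.0935, 0.174, 0.0675 and 0.0533) and with scaling on symbol rows (0.0791).

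Of 26 listed genes that read or set DNA methylation at imprints, 5 had rows and 3 were tested, of which 1 passed. That share, 33.3%, was near the 32.1% of tested symbols that passed. Tet3, a methylcytosine dioxygenase gene, had 1.86 and 1.90 CPM in the deleted libraries, against 2.60, 3.08 and 3.43 CPM in the wildtype libraries. It fell by 0.70 ± 0.14 on the log2 scale (SE; edgeR adjusted p = 0.00420). Ctcfl, the germline paralogue of Ctcf, had 0.70 ± 0.30 and did not pass (edgeR adjusted p = 0.0918), but passed, at 1.03, once wildtype 3 was left out (edgeR adjusted p = 0.00852). Aff3, whose protein binds imprint control regions in mouse embryonic stem cells, had -0.12 ± 0.18 (edgeR adjusted p = 0.615). Ctcf, Zfp57, Trim28 and the DNA methyltransferase genes were not analysed here.

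Genes with a pattern most like each member were found over 1606 symbols by the root mean square (RMS) difference of mean-centred log2 CPM across the 5 libraries, a description with no test. Nearest to H19 were the adhesion gene Mdga1, the EGF-repeat gene Megf11 and the collagen receptor gene Mrc2, at RMS differences of 0.183, 0.185 and 0.197. Like H19, Mdga1 was highest in wildtype 3, with 1.05 and 0.949 CPM in the deleted libraries, against 2.49, 2.79 and 3.11 CPM in the wildtype libraries. Nearest to Igf2 were the glypican gene Gpc6, the thrombospondin gene Thbs4 and the receptor gene Treml2, at 0.114, 0.139 and 0.145. Gpc6, with 0.311 and 0.495 CPM in the deleted libraries, against 0.539, 0.665 and 0.615 CPM in the wildtype libraries, shared the low level of deleted 1.

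Dlk1 had the closest matches, with the ephrin ligand gene Efna1 at an RMS difference of 0.0435, Rasal1, of a Ras GTPase-activating protein, at 0.0596 and the iron regulation gene Hfe at 0.0642. Efna1 had 0.954 and 0.888 CPM in the deleted libraries, against 0.506, 0.595 and 0.537 CPM in the wildtype libraries. Between members the RMS difference was 0.657 for H19 and Igf2, 0.667 for Igf2 and Dlk1 and 1.19 for H19 and Dlk1. Within the 3 members the pair H19 and Igf2 was closest by a narrow margin, and Igf2 was about as far from Dlk1 as from H19. H19 and Igf2 were each farther from the other than from their 3 nearest symbols.

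H19, Igf2 and Dlk1 are also abundant in fibroblasts, mesoderm and extraembryonic lineages, so markers of those cells are given beside them. In bulk RNA, fewer cells of a type and less RNA per cell cannot be told apart. None of 13 embryonic stem cell markers had a row under its symbol, so the labelled cell type was not checked. Of 8 tested fibroblast markers, 5 were higher and 3 did not pass, but 3 were called without wildtype 1 or wildtype 2. Calls over all genes fell as well, from 6453 to 5299 without wildtype 1 and to 5263 without wildtype 2. The log2 fold change of Col6a1 was 2.09, and 1.34 without deleted 2. Shares of all these lists stand beside the 32.1% of tested symbols that passed. The summed level of the 13 with rows was 14.2 to 14.4 CPM in the deleted libraries and 10.05 to 13.2 CPM in the wildtype libraries. Lum, Postn and Dcn of that list had 0 to 3 counts per library. By contrast, Fbn1 averaged 6.17 CPM in deleted and 5.53 CPM in wildtype cells, and Pdgfrb 3.82 and 2.71 CPM. Most counts lay under assembly IDs not paired with symbols, so low counts under a symbol, here and below, do not show that a gene is silent. Of 6 tested trophoblast markers, Cdx2, Gata2 and Fgfr2 were lower and 3 did not pass. Cdx2 reached the test through the wildtype libraries alone, and its call ended with DESeq2, without deleted 1 and without wildtype 1. The 9 with rows summed to 2.94 to 3.32 CPM in the deleted libraries and 5.26 to 5.93 CPM in the wildtype libraries. The placental genes Tpbpa and Prl3d1 were at 0 or 1 count.

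Of 10 tested primitive endoderm markers, 1 was higher, 3 were lower and 6 fell short of the threshold, and 2 were called without deleted 1. The 13 with rows summed to 6.27 to 7.24 CPM in the deleted libraries and 8.66 to 9.62 CPM in the wildtype libraries, with Ttr at 0 in all libraries. Of 9 tested mesoderm markers, 2 were higher, 1 was lower and 6 did not pass, with 1 called without deleted 1 or deleted 2, at a sum over 13 genes of 4.39 to 4.66 CPM in the deleted libraries and 4.36 to 5.28 CPM in the wildtype libraries. All 11 tested markers of two-cell-like cells were higher, but Dux, Tdpoz3, Usp17lc, Usp17ld and Tmem92 reached the test through the deleted libraries alone, as did Col6a1 among fibroblast and Tbx6 among mesoderm markers, and near-identical copies in these families may share reads. The 16 with rows summed to 17.2 to 17.6 CPM in the deleted libraries and 2.97 to 3.26 CPM in the wildtype libraries. The sums of the trophoblast and primitive endoderm lists thus moved in the direction of H19, and those of the fibroblast and two-cell-like lists in the direction of Dlk1. Their part in the results for H19 and Dlk1 was not tested.

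H19 and Dlk1 kept their direction and their call in each of the 16 other settings tried. Log2 fold changes of H19 ran from -1.98 to -1.54 when single libraries were left out, and those of Dlk1 from 0.64 to 0.73. Igf2 stayed negative in all 16.

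**Figure D4:**
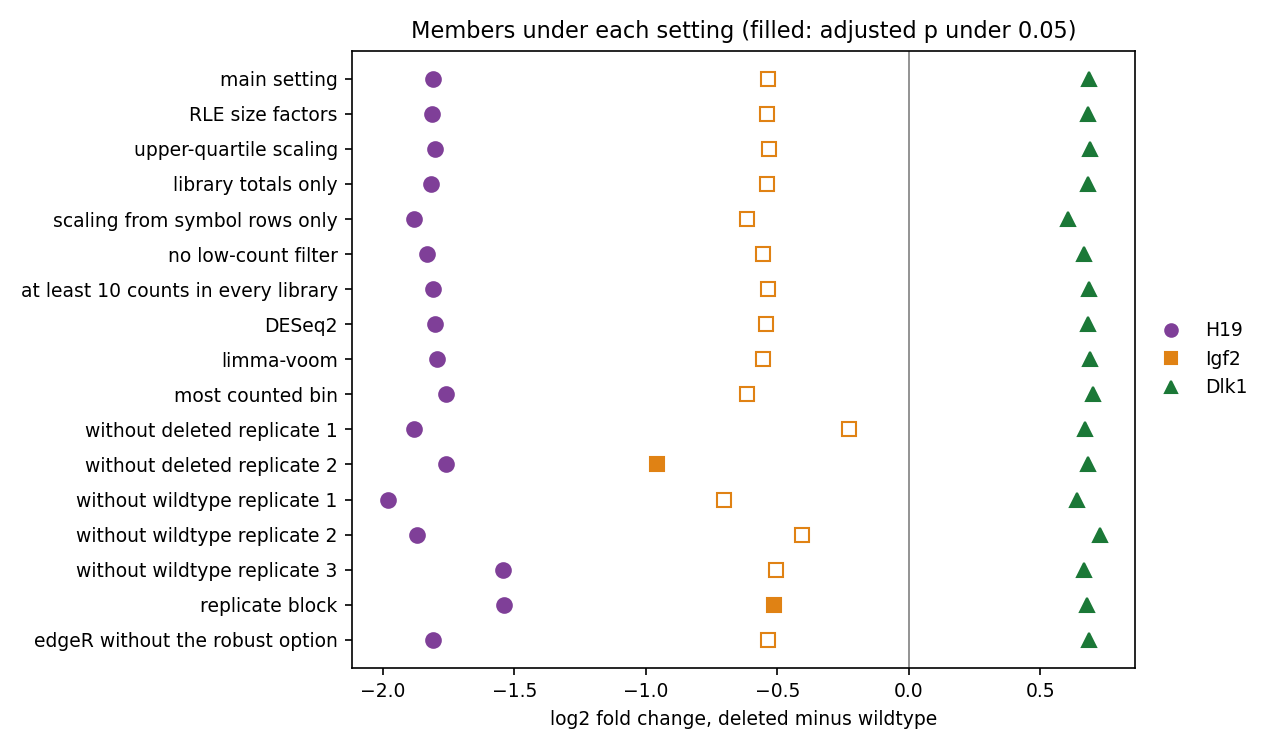
Log2 fold change of H19, Igf2 and Dlk1 (horizontal axis, deleted minus wildtype) in the main setting and in 16 others, one per row; filled symbols passed adjusted p under 0.05. H19 stays at -1.54 or below and Dlk1 at 0.61 or above, while Igf2 runs from -0.96 to -0.23.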

How the data were processed

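Polyadenylated RNA libraries were analysed, 5 in all, 2 deleted and 3 wildtype. The authors deposited raw read counts per exon bin in 1 table. Per the submitters' processing notes, STAR and mm9 were used; annotation and strand setting: not given in the sources used here. Reads crossing bin borders add to every bin they touch. Only 0.328% to 0.375% of counts lay under gene symbols, the rest under assembly IDs (MSTRG) that the table does not pair with symbols, so reads of a member may be divided with an ID that overlaps it.

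Here, bin counts were summed per gene, 56 spike-in names were left out, and genes passing filterByExpr were tested, after TMM scaling, with edgeR's robust quasi-likelihood F test over the whole table, with Benjamini-Hochberg adjustment (R 4.3.3, edgeR 4.0.16, limma 3.58.1, DESeq2 1.42.0). The SE is the log2 fold change divided by the square root of F. Bins were tested likewise, and exon usage with diffSpliceDGE. The tests were tried on simulated data. Alternatives were other scalings and filters, DESeq2, limma-voom, the most counted bin, each library left out and a replicate block. Named genes were the members, every tested gene of the imprinted and the 2 domain lists, up to 4 per other pathway list by p, and the 3 nearest patterns per member (prior count 2, mean log2 CPM of at least -1). Members and lists were chosen with earlier results of these data known.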

Additional observations from a re-analysis of the deposited data

How the results depend on the processing

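Among alternative values for the main results, 190 kept their direction and side of the threshold or stayed within 1.5 times the main count, 21 did not, and 0 reversed. The H19 per Igf2 ratio could not change side, since its permutation p cannot go below 0.2, so its values speak for direction alone. Igf2 had a log2 fold change of -0.51 (edgeR adjusted p = 0.00987) with the replicate block, and -0.96 to -0.23 when 1 library was left out. With 1 library left out, calls ran from 3555 to 8347 over all genes, from 6 to 11 for imprinted genes, from 1 to 3 for the IGF list, from 2 to 5 for the Notch list, from 1 to 2 for the imprint readers, from 1 to 3 for H19 bins, from 0 to 1 for Igf2 bins and from 0 to 5 for Dlk1 bins. Fits with 1 deleted library borrow their spread from wildtype. In the most counted bin, 6 of 17 imprinted genes and 1 of 7 genes of the H19 and Igf2 domain passed, where 5608 of 15185 genes did. With the replicate block, 4 genes of the IGF list, 2 imprint readers and 1 Igf2 bin passed, and 8200 genes in all. The labels do not say that same-numbered libraries share more than a number. Their deviations from the group means correlated at 0.05 for number 1 and -0.05 for number 2. The deviations of the 2 deleted libraries mirror each other, so these values cannot show whether a batch was shared. Wildtype 3 has no partner in the block. H19 and Igf2 had no bin usage value with at least 10 counts per bin in every library. The test without the robust option and the marker counts with a library left out or by DESeq2 were added after the data were seen. Low counts limit H19 and single bins most.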
